A study of Mus musculus with 15 samples.

Results

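A set of 10 protein-coding genes that were close to silent in wild-type mice and raised in most Rps9 D95N mice are described here, out of 22524 genes counted: Drd4, Htra4, Acaa1b, Cryba2, Adgrf4, Lhx3, Rgs13, B3gnt8, Cd28 and Cyp2a5. They were picked by their level in wild type and their rise in D95N, so that rise is described without a test. The question asked of them is which of the genes rose in the same libraries. RNA was sequenced from 15 female C57BL/6 mice aged 18 months, 1 library per animal. Of these, 7 carried the D95N substitution in 1 of the 2 alleles of Rps9, which encodes a ribosomal protein of the small subunit, and 8 were wild-type littermates without it. No treatment or other allele is named for either group.

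Libraries are named by genotype and animal number: D95N 4, 21, 28, 41, 42, 44 and 50, and wild type 8, 11, 16, 19, 24, 30, 32 and 43. The design text of the series says brain cortex, whereas the samples' tissue field says skeletal muscle. Summed over 5 markers, neuronal genes stood at 6190 to 7645 CPM per D95N library and 6284 to 6933 CPM per wild-type library, while 6 skeletal muscle genes together reached 7.45 to 13.0 and 8.87 to 28.1 CPM. Total counts ran from 23349381 to 34587082. Rps9 itself stood at 65.3 ± 3.02 CPM (SD, n = 8) in wild type and 63.1 ± 6.13 CPM (SD, n = 7) in D95N, which did not pass at -0.05 ± 0.05 (SE) on the log2 scale (adjusted p = 0.505 by edgeR's quasi-likelihood test). Gene counts do not show the substitution, so they do not check the genotype labels. D95N 42 stood apart from the other D95N libraries for nearly all of the genes described here, and the correlations between the genes, with the activity list and with neighbours that changed are given with and without it.

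The genes come from unrelated families, and most are known for roles outside the cortex. Drd4 encodes a D2-like dopamine receptor, Adgrf4 an orphan adhesion G protein-coupled receptor and Cd28 the costimulatory receptor of T cells. Rgs13 shortens signals of G protein-coupled receptors by speeding GTP hydrolysis on G alpha subunits, and is known from B cells and mast cells. Lhx3 is a LIM-homeodomain transcription factor of the developing pituitary and of motor neurons. Htra4 is a secreted serine protease, Acaa1b a thiolase of peroxisomal fatty acid oxidation, and B3gnt8 a glycosyltransferase that extends poly-N-acetyllactosamine chains. Cryba2 is a beta-crystallin of the eye lens, and Cyp2a5 a cytochrome P450 known from liver and olfactory mucosa.

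Near-silent here means a wild-type mean of 0.246 CPM (Cryba2) to 1.66 CPM (Adgrf4), where CPM is the read count scaled to a common library size with TMM factors. In raw counts the 10 genes had 2 to 66 reads in a wild-type library and at most 1514 in a D95N library. Scaled also to each gene's exonic length, the wild-type mean levels ran from 0.0636 CPM per kb for Cd28 to 0.542 CPM per kb for Adgrf4, and the D95N means from 0.497 for B3gnt8 to 4.45 CPM per kb for Adgrf4. Counting error alone would give a spread of 13.7% to 35.4% between wild-type libraries, and the measured spread was 12.8% to 86.5%. In D95N, counting error would give 4.98% to 12.8%, against a measured 48.9% to 220%. The spread among D95N libraries was thus larger than counting error for each of the 10 genes, which was not so in wild type for Htra4, Acaa1b, Adgrf4 and Lhx3.

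Among the receptors and their regulator, Drd4 (ENSMUSG00000025496, GRCm38 chromosome 7, 141292006 to 141296464, plus strand) had the largest fitted fold. It reached 10.5 CPM in D95N 4, 6.79 in D95N 21, 6.56 in D95N 50, 3.27 in D95N 44, 3.17 in D95N 28, 1.57 in D95N 41 and 0.313 in D95N 42. The 8 wild-type libraries ran from 0.0704 through a median of 0.240 to 0.834 CPM. D95N 42 lay inside the wild-type range and the other 6 above it. The means were 0.289 ± 0.25 and 4.6 ± 3.54 CPM (SD, n = 8 and 7), and the log2 fold change was 3.94 ± 0.59 (SE), or 15.4-fold.

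Adgrf4 (ENSMUSG00000023918, chromosome 17, 42656891 to 42692284, minus strand) held the highest single value of the group. Its level was 48.4 CPM in D95N 4, 13.5 in D95N 21, 13.2 in D95N 50, 11.3 in D95N 44, 3.71 in D95N 41, 3.37 in D95N 28 and 1.88 in D95N 42, against 1.37 to 2.03 CPM in wild type with a median of 1.61. Again only D95N 42 overlapped wild type. The means, 1.66 ± 0.213 and 13.6 ± 16.1 CPM (SD, n = 8 and 7), gave a log2 fold change of 3.04 ± 0.55 (SE), which was 2.23 without D95N 4, a fold smaller by more than 1.5 times.

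Cd28 (ENSMUSG00000026012, chromosome 1, 60716800 to 60773359, plus strand) had the same library on top: 10.7 CPM in D95N 4, 4.51 in D95N 21, 3.72 in D95N 44, 3.49 in D95N 50, 1.48 in D95N 28, 0.416 in D95N 41 and 0.279 in D95N 42. Wild type ran from 0.146 through 0.406 to 0.575 CPM. Here both D95N 41 and D95N 42 fell among the wild-type libraries. From 0.389 ± 0.126 in wild type to 3.51 ± 3.57 CPM in D95N (SD, n = 8 and 7) the log2 fold change was 3.17 ± 0.60 (SE), and 2.56 without D95N 4.

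Rgs13 (ENSMUSG00000051079, chromosome 1, 144138654 to 144177372, minus strand) stood at 11.1 CPM in D95N 4, 7.56 in D95N 44, 5.05 in D95N 21, 3.17 in D95N 28, 1.55 in D95N 50, 1.5 in D95N 41 and 0.313 in D95N 42, and at 0.292 to 0.870 CPM with a median of 0.547 in wild type. Only D95N 42 overlapped, while D95N 50 ranked lower here than for any other of the 10 genes. The log2 fold change was 2.88 ± 0.53 (SE) between means of 0.589 ± 0.224 CPM (SD, n = 8) and 4.32 ± 3.88 CPM (SD, n = 7).

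Of the enzymes, Htra4 (ENSMUSG00000037406, chromosome 8, 25024929 to 25038962, minus strand) reached similar levels in most D95N libraries. Its values were 15.7 CPM in D95N 21, 14.4 in D95N 4, 10.3 in D95N 50, 8.39 in D95N 28, 7.41 in D95N 44, 7.13 in D95N 41 and 0.871 in D95N 42, and 0.784 to 1.11 CPM, median 0.952, in wild type. The lowest of the 6 raised libraries was thus far above the highest wild-type one, and D95N 42 sat inside the wild-type range. Means of 0.949 ± 0.122 CPM (SD, n = 8) and 9.18 ± 4.97 CPM (SD, n = 7) gave a log2 fold change of 3.27 ± 0.38 (SE).

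Acaa1b (ENSMUSG00000010651, chromosome 9, 119148023 to 119157093, minus strand) had D95N 50 on top at 5.05 CPM, then 4.44 in D95N 4, 3.90 in D95N 44, 3.09 in D95N 21, 2.76 in D95N 28, 2.49 in D95N 41 and 0.348 in D95N 42. Wild type ran from 0.285 through 0.348 to 0.483 CPM. Its spread among D95N libraries, 48.9%, was the smallest of the 10 genes, and that of Htra4 the next at 54.2%. The log2 fold change was 3.14 ± 0.37 (SE), from 0.353 ± 0.0642 in wild type to 3.15 ± 1.54 CPM in D95N (SD, n = 8 and 7). Its near-copy Acaa1a, which encodes the same thiolase activity, stood at 40.8 and 43.8 CPM and did not pass (edgeR, adjusted p = 0.196). How reads shared by the 2 copies were counted is not given in the sources used here.

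B3gnt8 (ENSMUSG00000059479, chromosome 7, 25626654 to 25635100, plus strand) stood at 7.10 CPM in D95N 4, 4.65 in D95N 21, 3.92 in D95N 50, 3.45 in D95N 44, 1.81 in D95N 28, 1.02 in D95N 41 and 0.557 in D95N 42. Wild-type values were 0.263 to 0.604 CPM with a median of 0.495, so D95N 42 alone overlapped. The log2 fold change was 2.81 ± 0.43 (SE), the lowest of the 10, from 0.455 ± 0.135 in wild type to 3.22 ± 2.29 CPM in D95N (SD, n = 8 and 7).

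Cyp2a5 (ENSMUSG00000005547, chromosome 7, 26835305 to 26843548, plus strand) differed from the rest in that a single library carried its mean. It stood at 21.6 CPM in D95N 21, and at 1.12 in D95N 50, 1.05 in D95N 4, 0.570 in D95N 44, 0.453 in D95N 28, 0.384 in D95N 41 and 0.104 in D95N 42. Wild type ran from 0.1255 through 0.274 to 0.525 CPM. Only 4 D95N libraries exceeded every wild-type library, and D95N 42 was below all 8 wild-type libraries. The log2 fold change of 3.58 ± 0.96 (SE), from 0.295 ± 0.122 in wild type to 3.61 ± 7.93 CPM in D95N (SD, n = 8 and 7), was 1.03 without D95N 21.

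The transcription factor Lhx3 (ENSMUSG00000026934, chromosome 2, 26200212 to 26208289, minus strand) was the 1 gene of the 10 for which no D95N library overlapped wild type. It reached 5.59 CPM in D95N 4, 4.37 in D95N 21, 2.61 in D95N 44, 2.11 in D95N 50, 2.02 in D95N 28, 0.863 in D95N 41 and 0.766 in D95N 42, against 0.201 to 0.471 CPM, median 0.350, in wild type. The gap between D95N 42 and the highest wild-type library was small. Its log2 fold change was 2.96 ± 0.40 (SE), between means of 0.333 ± 0.0899 CPM (SD, n = 8) and 2.62 ± 1.78 CPM (SD, n = 7).

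Cryba2 (ENSMUSG00000006546, chromosome 1, 74889934 to 74893143, minus strand) was the least expressed in wild type, with 0.1255 to 0.460 CPM and a median of 0.226. In D95N it reached 3.55 CPM in D95N 21, 3.48 in D95N 4, 3.39 in D95N 44, 2.03 in D95N 50, 1.48 in D95N 28, 0.418 in D95N 42 and 0.320 in D95N 41. The lowest library was D95N 41 and not D95N 42, and both overlapped wild type. The log2 fold change was 3.06 ± 0.49 (SE), from 0.246 ± 0.120 in wild type to 2.10 ± 1.42 CPM in D95N (SD, n = 8 and 7).

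**Figure D1:**
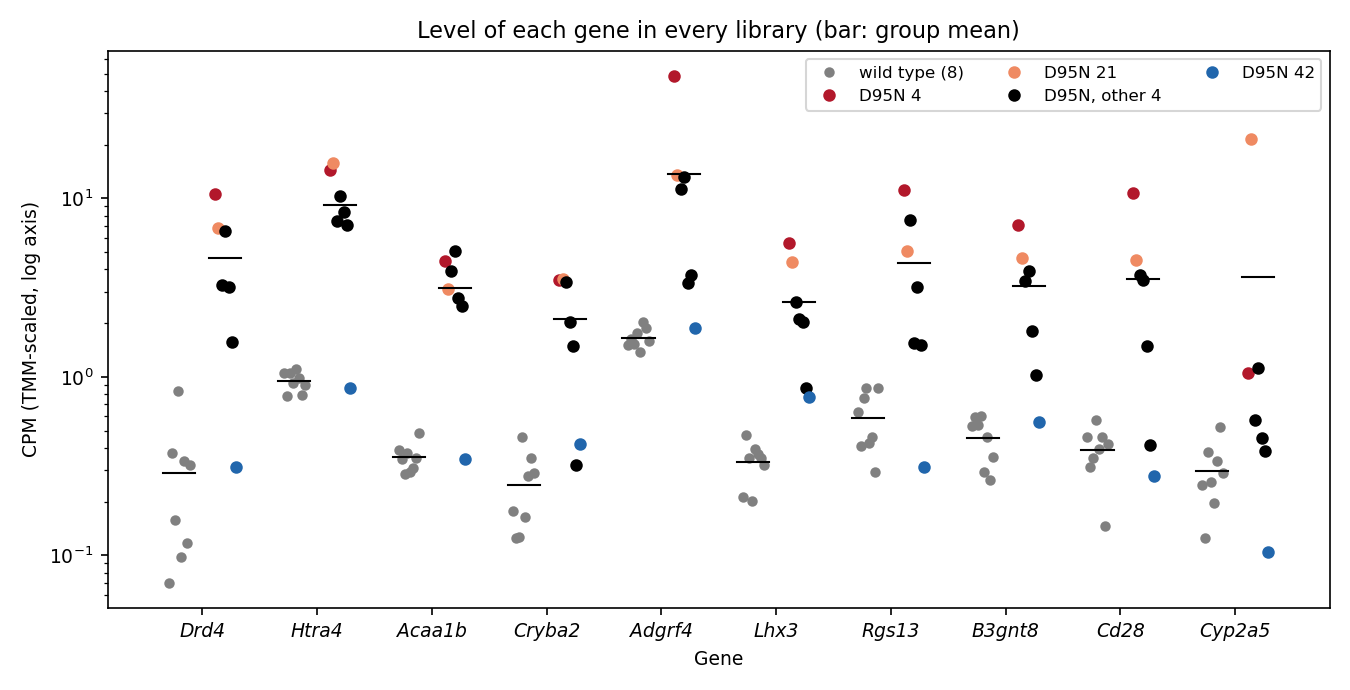
CPM (TMM-scaled, log axis) of each gene in every library, with wild type in grey, D95N in colour or black and each group mean as a bar. D95N 42 (blue) sits among or near the wild-type points for all 10 genes, D95N 4 (red) is highest for 6, and D95N 21 (orange) stands far above the rest for Cyp2a5 at 21.6 CPM.

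The sequence just before the transcription start was available from RefSeq (GRCm38.p6) for 8 of the 10 genes, as 9 promoters. The 250 bases before the start of 5 of them are shown 5′ to 3′ on the gene's strand: Drd4 and B3gnt8, which ranked the 7 D95N libraries alike, Cryba2 and Adgrf4, which hold AP-1 letters, and Cyp2a5, whose pattern differed. They lie at chr7:141291768-141292017, plus strand (Drd4), chr7:25627374-25627623, plus strand (B3gnt8), chr1:74893144-74893393, minus strand (Cryba2), chr17:42692285-42692534, minus strand (Adgrf4) and chr7:26835089-26835338, plus strand (Cyp2a5). These RefSeq starts can differ from the gene positions given above. The stretch for B3gnt8 lies inside the gene as placed above, from 25626654, and those for Drd4 and Cyp2a5 end shortly past the gene start. Capitals mark TGANTCA, the AP-1 motif bound by Fos and Jun, and the TATA box letters TATAAA.
Drd4: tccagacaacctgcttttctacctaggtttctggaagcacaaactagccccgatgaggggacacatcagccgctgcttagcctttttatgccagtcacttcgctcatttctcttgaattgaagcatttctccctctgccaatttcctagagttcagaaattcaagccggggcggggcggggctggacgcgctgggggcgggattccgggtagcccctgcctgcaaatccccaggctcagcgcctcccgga
B3gnt8: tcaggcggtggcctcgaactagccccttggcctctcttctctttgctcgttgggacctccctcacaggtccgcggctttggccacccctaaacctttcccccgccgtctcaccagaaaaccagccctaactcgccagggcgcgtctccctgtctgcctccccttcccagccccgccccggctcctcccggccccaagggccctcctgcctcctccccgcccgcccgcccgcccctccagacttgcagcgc
Cryba2: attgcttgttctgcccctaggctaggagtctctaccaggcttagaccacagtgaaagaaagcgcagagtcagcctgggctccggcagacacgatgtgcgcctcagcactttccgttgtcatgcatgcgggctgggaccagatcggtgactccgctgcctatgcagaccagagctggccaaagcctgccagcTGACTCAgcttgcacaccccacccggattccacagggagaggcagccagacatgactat
Adgrf4: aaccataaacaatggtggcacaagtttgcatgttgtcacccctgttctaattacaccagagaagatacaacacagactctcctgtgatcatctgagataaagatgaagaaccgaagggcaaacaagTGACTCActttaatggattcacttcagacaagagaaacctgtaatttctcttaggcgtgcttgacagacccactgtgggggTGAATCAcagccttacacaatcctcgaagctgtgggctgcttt
Cyp2a5: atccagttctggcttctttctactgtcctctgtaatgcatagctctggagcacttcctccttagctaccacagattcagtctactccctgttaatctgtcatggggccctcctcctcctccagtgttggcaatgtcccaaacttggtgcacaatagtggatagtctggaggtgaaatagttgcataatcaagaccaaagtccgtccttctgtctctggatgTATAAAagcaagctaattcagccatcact

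TGANTCA, searched on both strands, was in 2 of the 9 promoters, at -59 to -53 from the start of Cryba2 and at -124 to -118 and -43 to -37 from that of Adgrf4, against 6.75% of all 32851 promoters. TATAAA was in 2, at -29 to -24 in Cyp2a5 and -176 to -171 in 1 of 2 promoters of Lhx3, against 12.4%. The half-site TGACG was in that promoter of Lhx3 (17.8% of all), and the full CRE TGACGTCA (1.55%), the E-box CACGTG (6.02%), GCGNGGGCG of the Egr factors (4.70%), the CArG box (1.47%), the MEF2 box (0.508%) and the octamer ATTTGCAT (1.60%) were in none. No motif of the 9 was shared by more than 2 promoters. Median GC content was 56.8% against 52.4% for all promoters, and the median number of CpG dinucleotides 9 against 6.

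Over all 14989 genes tested, 26.8% passed between D95N and wild type (edgeR, adjusted p under 0.05), 15.2% higher and 11.6% lower. The balance turned with scaling, from 2272 higher and 1744 lower with TMM to 1926 and 2351 with upper-quartile factors and 1808 and 2536 with library totals. All 7 D95N libraries exceeded all 8 wild-type libraries for 1.81% of genes, at least 6 of 7 did for 8.17%, and at least 5 of 7 for 14.1%. Of the 10 genes described here, 1 met the first of these, 7 the second and 9 the last, counts that the choice of genes sets and from which nothing is read. In the same range of wild-type means there were 1760 tested genes, of which 10% passed as higher and 5% as lower. Among them 5.85% were at least 2-fold higher, 1.48% at least 4-fold higher and 0.852% at least 2-fold lower by the fitted fold, and 4.26% had 6 or more D95N libraries above wild type. Most genes of this range therefore passed in neither direction. The expression filter uses all libraries, so a gene near the low end of this range could be tested through its D95N reads alone. Part of the excess of higher over lower genes here is thus set by the filter, and nothing is read from it.

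The members were not the only genes with such folds. Ranked by fold over called genes whose mean over all libraries reached 1 CPM, the 10 took places 2 to 4 and 6 to 12. All of them but Adgrf4 had a wild-type mean under 1 CPM and met that limit only through D95N. As they were also picked for their rise, their places follow in part from the choice, and nothing is read from them. Slc6a5, a glycine transporter, was at place 1 (2.60 to 40.6 CPM) and Nptx2, a secreted neuronal pentraxin, at place 5 (39.7 to 366 CPM), both from higher wild-type levels. Just inside the lower end was B3gnt8 at 7.03-fold. Just outside were Wnt9b at 6.11-fold, Atf3 at 5.74, Inhba at 5.62, Mybpc1 at 5.41 and Fosb at 5.36, with wild-type means of 0.987 CPM (Atf3) to 11.4 CPM (Fosb).

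The D95N libraries took a similar but not identical order over the genes, with D95N 50 highest for Acaa1b and among the lower ones for Rgs13. Averaged over the 10 genes, the rank among D95N libraries (1 the highest) was 1.5 for D95N 4, 2.0 for D95N 21, 3.2 for D95N 50, 3.5 for D95N 44, 4.9 for D95N 28, 6.0 for D95N 41 and 6.9 for D95N 42. D95N 4 was highest for 6 genes, D95N 21 for 3 and D95N 50 for 1, and D95N 42 was lowest for 9. The number of the 10 genes above every wild-type library was 10 in D95N 4, 21, 44 and 50, 9 in D95N 28, 7 in D95N 41 and 1 in D95N 42, or 57 of 70, and was unchanged with library totals in place of TMM.

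As a level, the median over the 10 genes fell from 8.82 CPM in D95N 4 through 4.85 in D95N 21, 3.71 in D95N 50, 3.59 in D95N 44, 2.39 in D95N 28 and 1.26 in D95N 41 to 0.383 in D95N 42, and it was 0.343 to 0.589 CPM in wild type. Kendall's W, which is 1 when every gene ranks the libraries alike, was 0.870 over D95N (0.877 without Cyp2a5, 0.803 without D95N 42) and 0.130 over wild type.

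**Figure D2:**
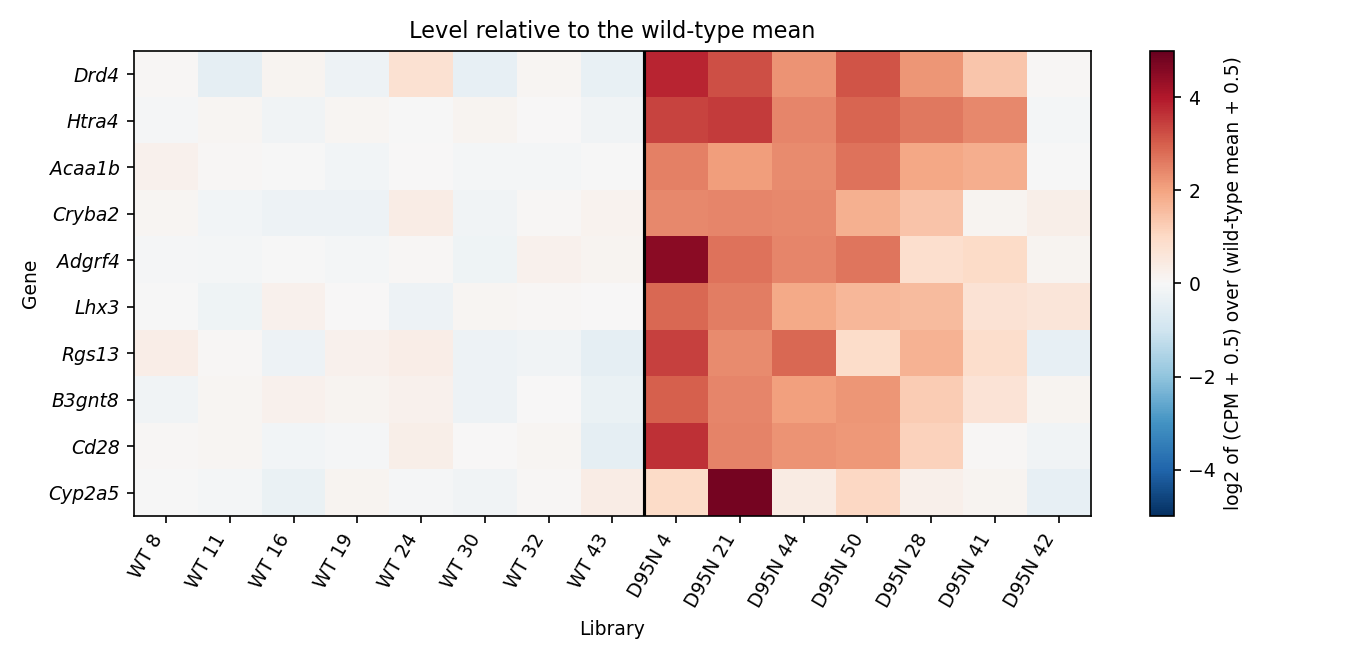
Level of each gene (rows) in each library (columns) as log2 of (CPM + 0.5) over (wild-type mean + 0.5), red above and blue below the wild-type mean. The wild-type columns and D95N 42 are pale throughout, and the D95N columns, ordered here as 4, 21, 44, 50, 28, 41 and 42, tend to fade from left to right for 9 genes, with Cyp2a5 strong in D95N 21 alone.

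To ask which genes rose in the same libraries, each of the 45 pairs was correlated over the 7 D95N libraries on log2(CPM + 0.5). All 45 correlations were positive, with a median Pearson r of 0.82 and a range from 0.33 to 0.99, and 13 exceeded 0.9. By an exact two-sided permutation test, 28 pairs passed at an adjusted p under 0.05 (35 by Spearman's rho). Genes picked for being raised in most but not all D95N libraries share the libraries where they are raised, so part of this agreement is set by the choice, and the count is a description.

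B3gnt8 and Cd28 followed each other most closely, with r = 0.99 and rho = 0.96 (exact permutation test, n = 7, p = 0.000397, adjusted p = 0.00595), and r = 0.98 without the 2 libraries farthest from the median of B3gnt8. Drd4 and B3gnt8 had r = 0.96 and rho = 1 (exact permutation test for r, p = 0.000198, the smallest that 7 libraries can give, adjusted p = 0.00446), with r = 0.92 without 2 libraries. Lhx3 and Cd28 had r = 0.96 and rho = 1 (exact permutation test for r, p = 0.000198, adjusted p = 0.00446), with r = 0.91 without 2 libraries. These 4 genes, a dopamine receptor, a glycosyltransferase, a costimulatory receptor and a homeodomain factor, lie on 3 chromosomes, and Drd4 and B3gnt8 are on the same one.

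Other members were tied more loosely. Drd4 and Rgs13 had r = 0.79 (exact permutation test, adjusted p = 0.0507), which fell to 0.21 without 2 libraries and so rested on them. Acaa1b passed in 3 of its 9 pairs and Htra4 in 5, against 8 of 9 for B3gnt8 and for Cd28. Cyp2a5 passed in none by r (median 0.56), although by rank its rho with the others ran from 0.61 to 0.93. By rho its pairs passed except those with Acaa1b and Rgs13 (exact permutation test, adjusted p = 0.0584 and 0.167). Without Cyp2a5, the 36 pairs had a median r of 0.85 and none under 0.68, and 32 passed.

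D95N 42 carried much of the count. Without it, the 45 pairs had a median r of 0.76 and a minimum of -0.03 over 6 libraries, and 4 passed the exact permutation test: Drd4 with B3gnt8 (r = 0.95, adjusted p = 0.0417), Cryba2 with Lhx3 (r = 0.91, adjusted p = 0.0417), Cryba2 with Cd28 (r = 0.91, adjusted p = 0.0469) and B3gnt8 with Cd28 (r = 0.99, adjusted p = 0.0417). With 6 libraries the test has less room than with 7. Without D95N 28, 18 pairs passed.

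In the 8 wild-type libraries the same pairs had a median r of -0.01, from -0.60 to 0.70, and 21 of 45 were positive. None passed (exact permutation test, lowest adjusted p = 0.709), and 1 had an unadjusted p under 0.05. Wild-type counts of these genes are low, so a shared order there was less detectable. The difference between the genotypes in these correlations was not tested.

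**Figure D3:**
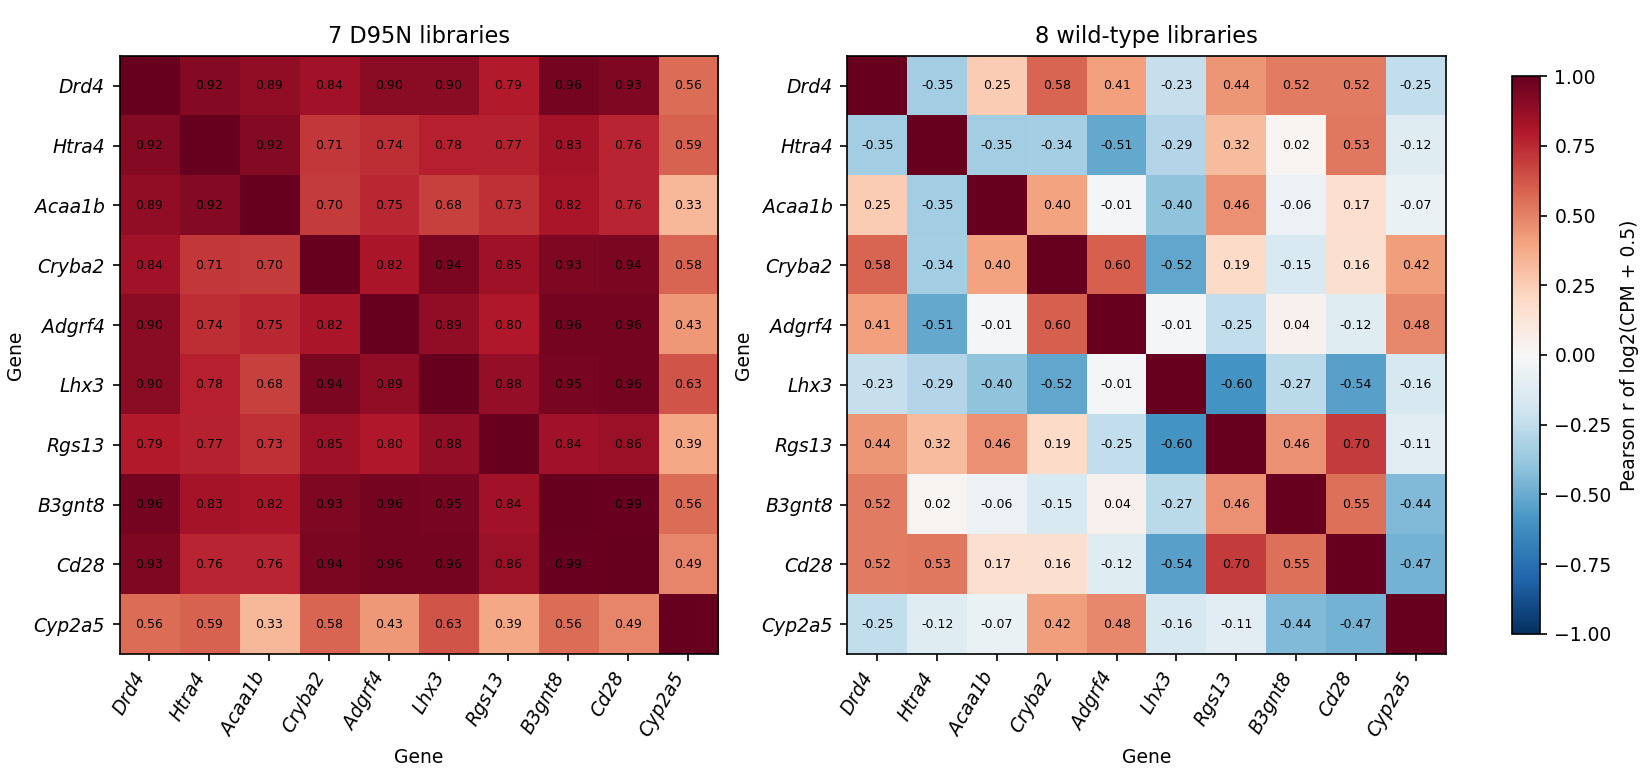
Pearson r of log2(CPM + 0.5) for each pair of genes over the 7 D95N libraries (left) and the 8 wild-type libraries (right), with the value printed in each cell. All pairs are positive in D95N, weakest in the Cyp2a5 row, while wild type shows both signs with a median of -0.01.

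Other raised genes shared the library order in part. Over D95N, the median r between pairs was 0.48 for the 166 other genes called higher in the same wild-type range, 0.65 for the 186 other genes called at least 2-fold higher and 0.41 for all 2262 other genes called higher. Without D95N 42 these were 0.25, 0.37 and 0.23, against 0.76 for the 10 genes described here, values not set against each other by a test. D95N 4 was the highest D95N library for 31.3%, 44.1% and 24.7% of these sets and for 14.8% of all tested genes, against 60% of the 10 genes described here. D95N 42 was the lowest for 70.5%, 83.9% and 58.3%, and for 17.9% of all tested genes, against 90%. D95N 42 was thus low for raised genes in general.

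Genes most like each member over the 7 D95N libraries were taken from 13820 tested genes whose mean reached 1 CPM. The likeness (Pearson r, n = 7, a description without a test) was 0.992 for Drd4 with Plxdc1, 0.992 for Htra4 with Rab36, 0.980 for Acaa1b with Utp11 and 0.985 for Cryba2 with Tmem40. It was 0.996 for Adgrf4 with Ppp3ca, 0.991 for Lhx3 with 9530068E07Rik, 0.996 for Rgs13 with Jaml, 0.994 for B3gnt8 with Zrsr2, 0.994 for Cd28 with Arhgef11 and 0.987 for Cyp2a5 with Smad2. No member had another member among its nearest 3. With so many genes and 7 libraries, high values are easily reached, and over wild type the 30 nearest genes had r from -0.63 to 0.68.

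Synaptic activity raises a set of immediate early genes and their targets, and a list of 25 of these was used as a readout that the choice of members did not use, although the list was chosen with earlier results of these data known. Of the 25, 16 rose, 1 fell and the median log2 fold change was 0.71, against 15.2% higher, 11.6% lower and a median of -0.01 over all tested genes. Nptx2 rose by 3.20 (edgeR, adjusted p = 0.000112), Bdnf, a neurotrophin, by 2.09 (adjusted p = 0.000191) and Gadd45b by 1.69 (adjusted p = 0.000257) on the log2 scale. The mean log2(CPM + 0.5) of the list was 6.03 in D95N 4, 6.02 in D95N 28, 5.43 in D95N 44, 5.17 in D95N 50, 5.11 in D95N 21, 4.94 in D95N 41 and 4.76 in D95N 42, and 4.2 to 4.99 in wild type. D95N 41 and D95N 42 were again the 2 lowest, but D95N 28, at a mean rank of 4.9 for the members, was near the top here.

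Over D95N, none of the 10 genes passed a correlation with this mean (exact permutation test, 10 genes, 0 with an unadjusted p under 0.05 by r). Rgs13 came nearest with r = 0.71 and rho = 0.82 (exact permutation test, n = 7, p = 0.0772 and 0.0341, adjusted p = 0.292 and 0.231), with r = 0.88 without 2 libraries. Of the others, 8 had r from 0.49 to 0.62 (0.65 to 0.83 without 2 libraries), and Cyp2a5 had -0.06 (0.23 without 2 libraries). At 7 libraries, correlations of this size could not be told from 0. With 1 library left out, their median ran from 0.34 (without D95N 42) to 0.78 (without D95N 28), and 0 passed each time. Against the total count of each library, r ran from -0.03 to 0.48 and the lowest adjusted p was 0.995 (exact permutation test).

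The neighbours of the 10 genes on the chromosome, the nearest 2 protein-coding genes on each side, were not used to choose them. Of 40 such neighbours 24 were tested, and 3 rose and 2 fell, or 20.8% against 26.8% of all tested genes, with a median log2 fold change of 0.04. For 6 members with tested neighbours none passed, and none of the 4 neighbours of Cyp2a5 was tested. Deaf1, 716 bp from Drd4, stood at 43.6 CPM in both groups (edgeR, adjusted p = 0.977), and Qsox2, 348 bp from Lhx3, at 31.5 and 34.7 CPM (adjusted p = 0.107). Sct, the gene of the hormone secretin 12873 bp to the other side of Drd4, had too few reads to test, with 5 to 24 per D95N library and at most 4 per wild-type library. Adgrf2, the adhesion receptor gene next to Adgrf4, stood at 0.531 and 0.571 CPM (adjusted p = 0.806 by edgeR).

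Htra4 was the exception nearest to its neighbour. Plekha2, which encodes a phosphoinositide-binding adaptor, ends 182 bp before the start of Htra4 on the same strand. It stood at 127 CPM in D95N 21, 113 in D95N 4, 110 in D95N 50, 105 in D95N 44, 88.3 in D95N 28, 78.0 in D95N 41 and 30.5 in D95N 42, against 31.2 to 44.3 CPM in wild type. As for Htra4, 6 D95N libraries were above wild type, and D95N 42 was here below all 8. Its change of 1.32 ± 0.20 on the log2 scale (SE) passed (adjusted p = 0.000404 by edgeR), from 37.3 ± 4.48 in wild type to 93.1 ± 32 CPM in D95N (SD, n = 8 and 7). Over the D95N libraries, in correlations added after the changes were seen, its r with Htra4 was 0.98 and rho 0.96 (exact permutation test, n = 7, p = 0.00238, adjusted p = 0.0524 over 24 neighbours), 0.81 without D95N 42 and 0.70 without 2 libraries. The next gene, Tacc1, rose by 0.42 (edgeR, adjusted p = 0.000681). The r of Tacc1 with Htra4 over D95N was 0.68 (exact permutation test, adjusted p = 0.262), and -0.15 without D95N 42. Reads that run from one gene into the other were not analysed here.

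**Figure D4:**
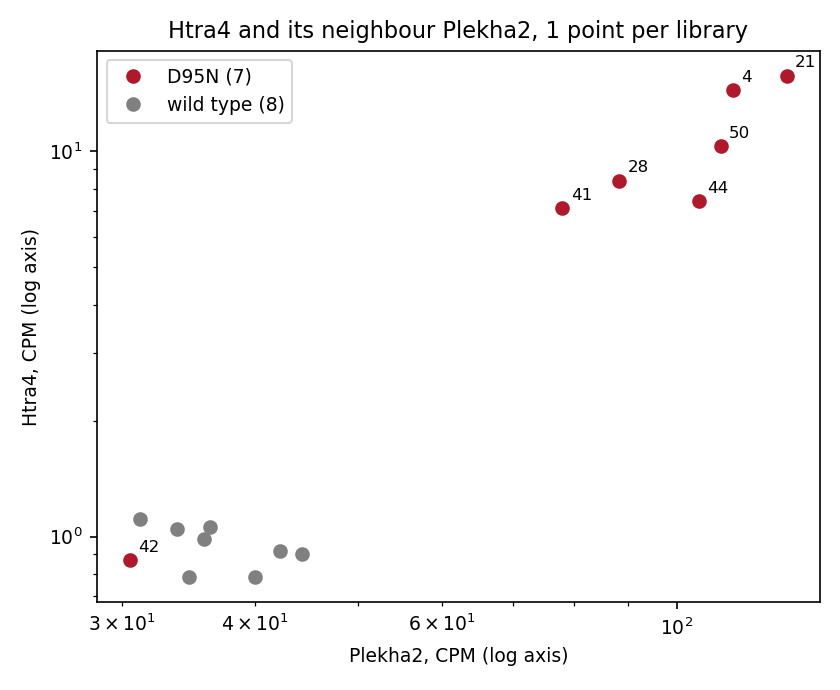
Htra4 against its neighbour Plekha2, both in CPM on log axes, 1 point per library, with D95N animals numbered in red and wild type in grey. The 6 raised D95N libraries form a group at 78.0 to 127 CPM of Plekha2 and at least 7.13 CPM of Htra4, and D95N 42 sits beside wild type.

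Rgs13 also had a raised neighbour. Rgs2, of the same RGS family and known as an activity-regulated gene, lies 134493 bp away on the same strand. It went from 70.2 ± 5.80 in wild type to 153 ± 53.6 CPM in D95N (SD, n = 8 and 7), or 1.12 ± 0.18 on the log2 scale (SE; adjusted p = 0.000517 by edgeR). Its r with Rgs13 over D95N was 0.91 (exact permutation test, p = 0.00437, adjusted p = 0.0524), with rho 0.79, and r was 0.82 without D95N 42. Rgs1, on the other side, had 0.281 and 0.338 CPM and was not tested for want of counts. Of the genes that fell, Ptchd4 dropped by 0.47 (edgeR, adjusted p = 0.0122) and Cd2ap by 0.22 (adjusted p = 0.0283, not passing in 6 of 21 alternatives), both near Adgrf4. Over D95N, r with Adgrf4 was -0.27 for Ptchd4 and 0.1 for Cd2ap, and 0.41 and 0.34 without D95N 42.

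Annotated exons of other genes overlap 4 of the members on the opposite strand. Reads there could not be split, because the strand setting of the counting is not given in the sources used here. Bckdha overlaps 18.1% of the exonic bases of B3gnt8 and stood at 41 and 40 CPM (edgeR, adjusted p = 0.575). Dlec1 overlaps 11.4% of those of Acaa1b and stood at 2.72 and 1.96 CPM (adjusted p = 0.0864 by edgeR). Gm16933 overlaps 32.9% of Htra4 and Gm27196 overlaps 6.2% of Lhx3, and neither is analysed here.

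In 11 lists of gene families and pathways, the activity list included, 31.1% of 151 tested genes were called, against 26.8% of all tested genes, with a median of 0.03. The activity list, whose genes are not relatives of the members, gave 17 of the 47 calls from 25 tested genes. The share among relatives alone was thus lower than the pooled one. Of 18 other dopamine signalling genes tested, 1 rose and 1 fell with a median of -0.07, and the receptor gene Drd2 was the one that fell, by 0.35 (edgeR, adjusted p = 0.0341, not passing in 6 of 21 alternatives). Of 3 HtrA proteases none passed (0 at an adjusted p under 0.05, median 0.03), with Htra1 at 185 and 186 CPM and Htra2 at 23.2 and 25.3 CPM. Of 14 peroxisomal beta-oxidation genes 0 rose and 2 fell (Hsd17b4 by 0.09 and Ehhadh by 0.27, median -0.02, not passing in 5 and 12 of 21 alternatives). Of 7 crystallins 1 fell (Cryl1 by 0.17, median -0.08, not passing in 14 of 21 alternatives). The beta-crystallins among them, Cryba4, Crybb1 and Crybb3, had log2 fold changes of 0.47, 0.22 and 0.23 without passing (edgeR, adjusted p = 0.0863, 0.219 and 0.51). Those of Cryab, Cryl1, Cryz and Crym were negative. Of 9 cytochrome P450 family 2 genes 2 fell (Cyp2j9 by 0.29 and Cyp2d22 by 0.23, median -0.06, the second not passing in 11 of 21). Families with changes both ways were the adhesion receptors (22 tested, 4 rose, 3 fell, median -0.02), LIM-homeodomain factors with their Ldb partners (11 tested, Ldb1 rose, Ldb2 fell, median -0.16) and RGS proteins (17 tested, 5 rose, 2 fell, median 0.03).

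In the lists of B3gnt8 and Cd28, single genes rose and others fell. B3gnt7, another glycosyltransferase of the same chains, went from 1.03 ± 0.205 in wild type to 4.23 ± 2.01 CPM in D95N (SD, n = 8 and 7), or 2.03 ± 0.30 on the log2 scale (SE; adjusted p = 0.000345 by edgeR), in a list of 15 where 2 rose and 3 fell. Icosl, a ligand of the Cd28 relative Icos, went from 8.09 to 14.4 CPM, a change of 0.84 (edgeR, adjusted p = 0.00197), in a list of 10 where 1 rose and 1 fell. In both, 6 of 7 D95N libraries were above all wild-type libraries. Icos and Ctla4 themselves, the neighbours of Cd28, stood at 0.123 and 0.0947 CPM and at 0.0551 and 0.0529 CPM and were not tested.

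Markers of some cell types and tissues known to express these genes were summed per library. B cells, named above for Rgs13, had no list. For T cells, Cd3d, Cd3e and Cd3g had at most 3, 4 and 3 reads in any library and Cd8a at most 6, and the sum of 12 markers was 9.76 to 16.6 CPM in D95N and 12.6 to 18.2 CPM in wild type, mostly Cd4. Of the 4 tested, Lck fell by 0.43 (edgeR, adjusted p = 0.0417), a call lost in 12 of 21 alternatives. For the pituitary, the sum of 10 markers was 1.16 to 2.61 CPM in D95N and 1.35 to 7.00 CPM in wild type, with at most 3 reads of Pou1f1 in any library. For photoreceptors and pineal it was 2.33 to 5.44 and 2.57 to 4.97 CPM with Gngt1 at 0 throughout, Pde6b rising by 1.07 (adjusted p = 0.0416 by edgeR, not passing in 5 of 13 alternatives). For mast cells it was 31.8 to 50.1 and 49.8 to 60 CPM, nearly all of it Kit, which fell by 0.48 (adjusted p = 0.00175 by edgeR), and Cpa3 had at most 3 and Mcpt4 at most 2 reads. For liver it was 1.02 to 1.89 and 0.805 to 1.44 CPM with at most 2 reads of Alb.

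A further 4 lists held a gene that rose or a library that stood out. Of 4 epithelial genes tested, Epcam rose from 0.300 ± 0.145 to 1.33 ± 0.827 CPM (SD, n = 8 and 7; 2.14 ± 0.45 SE on the log2 scale, adjusted p = 0.00258 by edgeR), and the sum of the 8 markers was 2.96 to 8.39 CPM in D95N and 2.92 to 6.64 CPM in wild type. Of 2 tuft cell genes tested, Avil rose by 1.40 (adjusted p = 0.0327 by edgeR), with 3 of 7 D95N libraries above wild type and the call lost in 10 of 21 alternatives, limma-voom included. The tuft cell sum of 808 to 1033 and 837 to 956 CPM was nearly all Dclk1 (935 CPM in D95N and 885 in wild type). Of 5 brainstem and spinal neuron genes, which include markers of the neurons where Lhx3 acts, Slc6a5 rose by 3.98 (adjusted p = 0.001 by edgeR), and the sum was 13.5 to 143 against 11.1 to 16.3 CPM. Of 4 olfactory epithelium genes none passed, with sums of 285 to 417 and 313 to 376 CPM that were nearly all Gnal (314 CPM in D95N and 323 in wild type). Omp, the olfactory marker protein, stood at 28.5 CPM in D95N 21 and at most 3.96 CPM elsewhere (adjusted p = 0.103 by edgeR). Among cells of the cortex, neurons had 2 genes up and 1 down of 5, astrocytes 1 down of 3 (Gja1) and oligodendrocytes 0 of 3. In bulk tissue, fewer cells of a type and less RNA per cell cannot be told apart. The part of these in the rise of the 10 genes was not tested.

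The library that carried Cyp2a5 also carried other genes known from olfactory and respiratory mucosa. In D95N 21, 29 genes stood at 1 CPM or more and at least 5 times every other library, Cyp2a5 among them, while D95N 4 and D95N 50 had 1 such gene each and the other D95N libraries 0. Cyp2g1, the P450 gene 14100 bp from Cyp2a5, had 406 reads or 14.4 CPM in D95N 21 and at most 0.128 CPM elsewhere. Ugt2a2, a glucuronosyltransferase, stood at 26.9 CPM, Bpifb3 at 26.1, Scgb1c1 at 14, Vmo1 at 11.2 and the mucin Muc5b at 6.64 CPM in that library. Of the P450 genes next to Cyp2a5, Cyp2a12 and Cyp2a22 had 0 reads in all libraries, and Cyp2a4, a near copy, had at most 5, in D95N 21. These genes were picked after their values were seen, and their part in the level of Cyp2a5 was not tested. For the other 9 genes, the log2 fold changes without D95N 21 were 2.71 (B3gnt8) to 3.83 (Drd4).

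**Figure D5:**
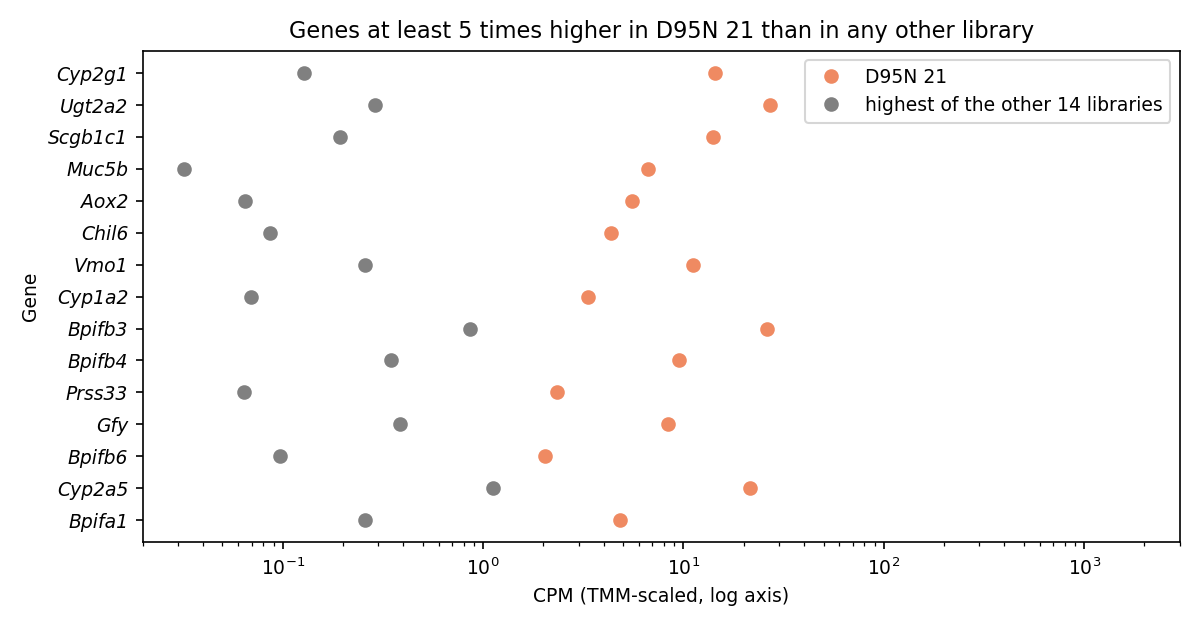
CPM (log axis) in D95N 21 (orange) and in the highest of the other 14 libraries (grey) for 15 of the 29 genes that stood at least 5 times higher in D95N 21, in order of the ratio of the 2 values with the lower one taken as at least 0.1 CPM. Cyp2a5 is the only one of the 10 near-silent genes among the 15, at 21.6 against 1.12 CPM.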

How the data were processed

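The deposited tables, 1 for each library, hold unnormalized read counts by Ensembl identifier. The authors aligned and counted with STAR and featureCounts on GRCm38, per the submitters' processing notes. Their versions, gene annotation, strand option and treatment of multi-mapping reads were not given in the sources used here. Of 22524 identifiers, 22291 matched GENCODE M21 and 233 did not. Groups follow the genotype labels, which carry no batch. Nothing beyond the animal number says that libraries are separate extractions, so p-values measure the spread between these libraries.

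Counts were tested in R 4.3.3 with edgeR 4.0.16 (quasi-likelihood test, TMM factors, default expression filter, genotype as the 1 term, Benjamini-Hochberg adjustment over all tested genes at 0.05). The SE of a log2 fold change was its size over the square root of the F statistic. CPM and correlations on log2(CPM + 0.5) were computed from the counts in Python 3.11.15, with two-sided exact permutation tests. The edgeR test was checked on simulated counts, and the permutation test on random normal values. Alternatives covered scaling, the filter, DESeq2 1.42.0, limma 3.58.1 (voom), prior counts, pseudocounts and each library left out in turn.

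The 10 genes and all gene lists were chosen with earlier results of these data known. Named besides the members are up to 3 called genes of each list by smallest p, or 2 of highest mean where none was called, called neighbours and the nearest on each side, the genes of most similar pattern and the 5 next by fold. Some of these are not reported here.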

Additional observations from a re-analysis of the deposited data

Results flagged for a closer look

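In 4 of 24 groups tested, 1 library lay far from the others of its genotype by Dixon's test, where chance gives about 1 in 20 groups. Adgrf4 stood at 48.4 CPM and Cd28 at 10.7 CPM in D95N 4, the library of highest rank for the members. Cyp2a5 stood at 21.6 CPM in D95N 21, where the next D95N library had 1.12 CPM. Drd4 stood at 0.834 CPM in wild type 24, against at most 0.376 CPM in the other wild-type libraries, and wild type 24 was also the highest wild-type library for Cryba2, B3gnt8 and Cd28.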

How the results depend on the processing

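The number of gene pairs that passed over the D95N libraries, 28, ran from 4 to 31 with 1 library left out (4 without D95N 42, 18 without D95N 28) and from 26 to 30 with other pseudocounts and scaling, while wild-type pairs and correlations with the activity list stayed at 0 in every alternative run. Of 200 alternative fold changes of the members, 1 moved by more than the spread between libraries, Cyp2a5 at 1.03 without D95N 21, and the median of the 10 (3.10) ran from 2.77 to 3.29. Without D95N 4, the folds of Adgrf4 (log2 3.04 to 2.23) and Cd28 (log2 3.17 to 2.56) fell by over 1.5 times, though that rule did not count them. Called genes split 2272 higher to 1744 lower with TMM, 1926 to 2351 with upper-quartile factors and 1808 to 2536 with library totals, and 3263 to 4976 passed with 1 library left out. With other scaling, filter or tool, the list counts that moved by over 1.5 times were dopamine 4 with library totals, peroxisomal 4 with upper-quartile factors and library totals and 1 unfiltered, crystallins 2, 2 and 0 in the same order, and, unfiltered, T cell 0, pineal 0, CD28 family 1 and P450 family 1, with tuft cell 0 by voom. With 1 library left out, 14 of 24 list counts moved by over 1.5 times in at least 1 fit: RGS 7 to 4 (without D95N 21 or 44), B3gnt 5 to 3 (without D95N 21), LIM 2 to 4 and HtrA 0 to 1 (without D95N 42), mast cell 1 to 2 (without D95N 4), oligodendrocyte 0 to 1 (without D95N 41) and dopamine 2 to 1 (without D95N 44, wild type 16 or 43). The other 7 were T cell, pineal, tuft cell, peroxisomal, crystallins, CD28 family and P450 family, in 9 to 12 of 15 fits each, with the T cell, pineal, tuft cell, peroxisomal and crystallin counts reaching 0. Among named genes looked at singly, Cd2ap lost its call in 6 of 21 alternatives, Avil in 10, Lck in 12, Drd2 in 6, Ehhadh in 12, Hsd17b4 in 5, Cryl1 in 14, Cyp2d22 in 11 and Pde6b in 5 of 13, and the cause was not tested. Low wild-type counts limit any order among wild-type libraries. No paired analysis was possible because the groups share no animal number.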
